A study of Mus musculus with 27 samples.

Results

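The Wnt ligands, their receptors, their secreted antagonists and the first intracellular steps of the pathway were followed through a time course of rosiglitazone in fat cells. The members were the genes whose probe set carried 1 symbol matching a Wnt ligand, a Frizzled receptor (Fzd), a secreted frizzled-related protein (Sfrp), a Dickkopf protein (Dkk), or Frzb, Wif1, Lrp5, Lrp6, Ctnnb1, Axin1, Axin2, the TCF/LEF factors, Lgr4 or an R-spondin (Rspo1 to Rspo4). This gave 53 of 18781 genes: 19 ligands, 10 Frizzled receptors, 7 co-receptors and R-spondins, 10 secreted antagonists, β-catenin with 2 Axins, 3 TCF/LEF factors, and Fzd10os, an RNA from the strand opposite Fzd10 that matches the pattern by name but is no receptor. Each of the 53 had 1 probe set. Tcf7 was not analysed here.

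The RNA came from mature 3T3-L1 adipocytes, which are fat cells grown in culture from a mouse preadipocyte line that had been driven to differentiate with dexamethasone, insulin and 3-isobutyl-1-methylxanthine. All 9 groups of 3 Affymetrix Mouse Gene 1.1 ST arrays came from these cells: untreated cells at time 0, and cells given 1 µM rosiglitazone in DMSO for 30 min, 1 h, 2 h, 6 h, 12 h, 24 h, 36 h or 48 h. Rosiglitazone activates PPARγ, the nuclear receptor that directs fat cell genes. Untreated cells at time 0 were the control at every time, so time in culture, handling and DMSO cannot be told apart from the drug, and all 8 comparisons with them share the same 3 arrays. The labels do not say whether replicates were separate cultures, so the spread behind each p-value may be only technical. Values are log2 intensities, which do not order different genes by transcript number. Changes are log2 differences ± SE with n = 3 arrays a group, and a gene is said to be called, or to have risen or fallen, where the limma p adjusted by the Benjamini-Hochberg method over the 18781 genes was below 0.05.

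Wnt proteins are secreted, lipid-modified signals. In the canonical branch a ligand bridges a Frizzled receptor and Lrp5 or Lrp6, the Axin complex stops destroying β-catenin, and β-catenin enters the nucleus and acts with TCF/LEF factors; other Wnt proteins, Wnt5a among them, act mainly through β-catenin-independent branches. Secreted frizzled-related proteins bind ligands, Dickkopf proteins block the co-receptors, and R-spondins acting through Lgr4 keep Frizzled receptors at the cell surface. In fat tissue, canonical Wnt signalling, with Wnt10b as the best known ligand, is known to hold preadipocytes back from differentiating.

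The cells carried the labelled identity by their markers. Of 12 adipocyte markers, 11 had a mean over the 27 arrays above the median of all gene means (4.76), and the mean level in untreated cells ran from 5.61 for the adipokine Lep to 12.23 for the lipase Lpl. Of 10 macrophage and endothelial markers, 9 lay below that median, and log2 of their summed intensity was 6.67 to 6.85 in untreated cells and 6.86 to 6.88 at 48 h. Preadipocyte and fibroblast markers were present as well, with 13 of 18 above the median and log2 of the summed intensity at 13.53 to 13.61 in untreated cells, while Cd34, Dpp4, Gata2, Gata3 and Tagln lay below it. In RNA from a whole culture, fewer cells of a type and less RNA per cell cannot be told apart.

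Most of the Wnt genes gave little signal, and the genes with signal carried nearly all of the changes. Of the 53 members, 16 had a mean above the median of gene means and 37 lay below it. Over the 8 differences from untreated cells, limma's F-test called 13 of 53 members (24.5%), beside 40.5% of all genes. Among the 16 members above the median it called 11 (68.8%), beside 66.1% of all genes above the median, and among the 37 below it 2 (5.41%), beside 15.0%. These differences in share were not tested. By role, the F-test called 5 of 10 Frizzled receptors, 3 of 3 TCF/LEF factors, 2 of 7 co-receptors and R-spondins, 2 of 10 secreted antagonists, 1 of 19 ligands and 0 of 3 β-catenin and Axin genes.

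**Figure D1:**
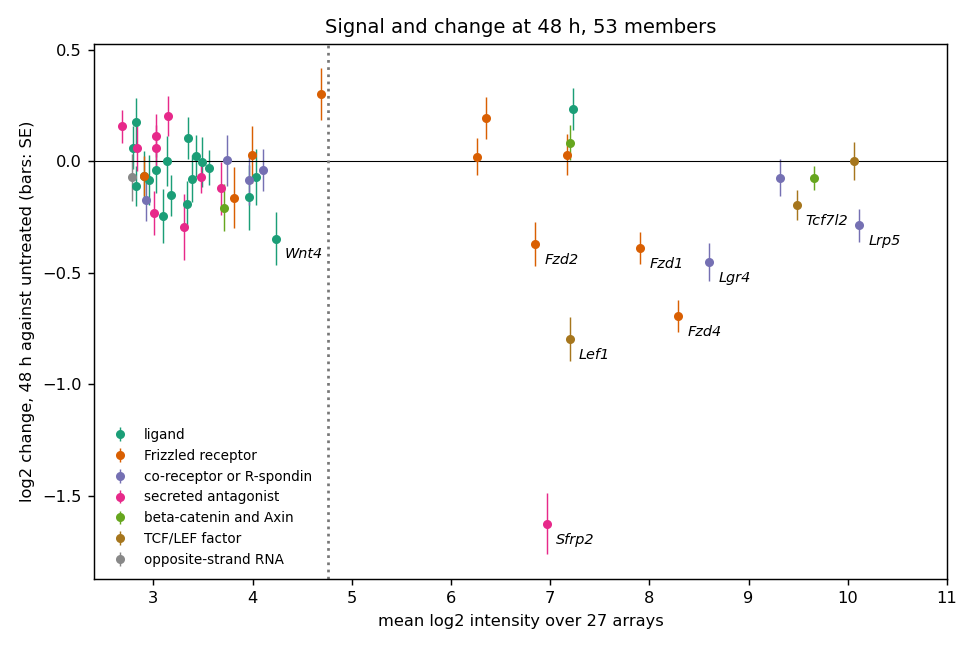
Each of the 53 genes by its mean log2 intensity over the 27 arrays (horizontal axis) and its log2 change at 48 h against untreated cells (vertical axis, bars are SE, n = 3 arrays a group), coloured by role, with called genes named and the dotted line at the median of all gene means (4.76). Of the 9 called genes, 8 lie right of the line, Sfrp2 is lowest at -1.63, and all but 1 of the ligands sit left of the line.

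Single times gave the following counts. At 30 min, 1 member had risen (Fzd5) and 0 had fallen, beside 0.0479% and 0 of all genes, and at 1 h the counts were again 1 and 0, beside 0.474% and 0.516%. At 2 h, 2 members had risen and 2 had fallen, beside 3.04% and 2.87% of all genes. At 6 h, 4 had risen and 4 had fallen (8.39% and 8.18% of all genes), and at 12 h 2 had risen and 5 had fallen (9.48% and 9.38%). At 24 h, 0 had risen and 6 had fallen (10.1% and 10.5%), at 36 h 2 and 8 (10.9% and 10.5%), and at 48 h 0 and 9 (12.6% and 11.4%). The median change of the 53 members at 48 h was -0.0705, beside 0.0133 for all genes. At an unadjusted p below 0.05, 2 members lay lower at 30 min and 0 at 1 h, 2 lay higher at 24 h and 5 at 48 h. Shares of all genes were not counted at this unadjusted cutoff. Such counts, here and below, are therefore not read as a result about the genes. Between treated times, 1 member rose and 2 fell from 30 min to 2 h (2.25% and 2.91% of all genes), 0 and 4 from 2 h to 6 h (4.27% and 4.89%), 0 and 4 from 6 h to 24 h (5.51% and 6.02%), 0 and 0 from 24 h to 48 h (0.713% and 0.745%), and 2 and 7 from 2 h to 48 h (12.2% and 11.5%). From 24 h to 48 h, limma gave 1 member higher and 5 lower at an unadjusted p below 0.05. The balance of directions moved with the scaling. With each array centred on its median, the members higher and lower were 3 and 1 at 2 h and 2 and 4 at 24 h. They were 4 and 4 at 36 h and 3 and 7 at 48 h. Of all genes called with this centring, 59.89%, 70.43%, 72.57% and 65.86% were higher at these times, so the balance moved for all genes as well. With a further quantile normalization the members were 2 and 5 at 6 h and 1 and 8 at 48 h. There, 52.15% and 50.91% of all called genes were higher.

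Across the 8 times, 15 members were called at least once: 9 only lower, 5 only higher, and Lgr4 in both directions. A further pair, Wnt5a and Sfrp5, was called by the F-test without passing at a single time, and 36 members were called in neither way. The share of all genes called at any of the 8 times was not counted. These counts and their directions are therefore not read as a result about the genes.

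**Figure D2:**
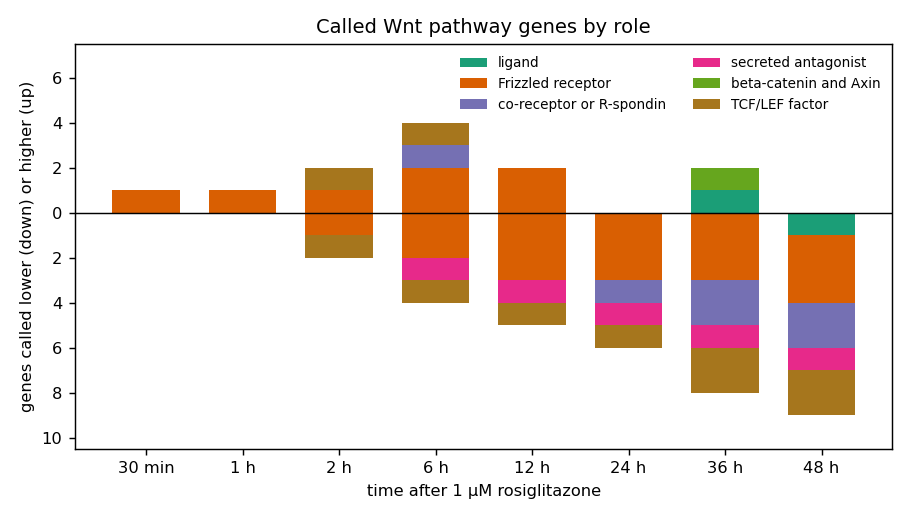
Number of Wnt pathway genes called higher (bars up) or lower (bars down) at each time after 1 µM rosiglitazone against untreated cells, coloured by role. Frizzled receptors make up the 1 call at 30 min and at 1 h, the downward bars grow from 2 genes at 2 h to 9 at 48 h, and ligands appear once at 36 h (upward) and once at 48 h (downward).

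Of the 19 ligands, Wnt5a was the 1 ligand above the median signal and the 1 called by the F-test (adjusted p = 0.000839). Its arrays read 7.33, 7.17 and 7.08 in untreated cells, 7.06, 6.96 and 7.01 at 1 h, 7.17, 7.03 and 7.01 at 2 h, 7.33, 7.44 and 7.40 at 24 h, and 7.51, 7.40 and 7.37 at 48 h. The arrays at 1 h lay below all untreated arrays and those at 24 h and 48 h lay above them by a narrow margin, while those at 2 h overlapped them. The difference from untreated cells was -0.18 ± 0.094 at 1 h (adjusted p = 0.558) and then 0.24 ± 0.094 at 48 h (adjusted p = 0.0723) and missed the threshold at each time. Between 2 h and 48 h, which does not use the untreated arrays, Wnt5a rose by 0.36 ± 0.094 (adjusted p = 0.00604 by limma), which did not pass without replicate 2 (0.35, adjusted p = 0.0644) or 3 (0.36, adjusted p = 0.0844) of all 9 groups. With arrays centred on their median, Wnt5a was called higher than untreated at 12 h, 24 h, 36 h and 48 h. This centring also moved the median change of all genes up, by 0.0594, 0.079, 0.0796 and 0.0454 at these times.

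Wnt4, a ligand of kidney and female reproductive tract development, read 4.26, 4.30 and 4.49 in untreated cells and 4.10, 4.08 and 3.84 at 48 h. All 3 arrays at 48 h lay below all untreated arrays, and the change was -0.35 ± 0.12 (adjusted p = 0.0371). The call ended without untreated replicate 2 (-0.37, adjusted p = 0.0611) or 3 (-0.28, adjusted p = 0.163) and without replicate 3 of 48 h (-0.26, adjusted p = 0.175). It also ended with centred arrays (-0.30, adjusted p = 0.0895) and with quantile normalization (-0.29, adjusted p = 0.117). Wnt2 was higher by 0.33 ± 0.11 at 36 h (adjusted p = 0.0336) at a signal of 2.70 ± 0.068 (SD, n = 3) in untreated cells and 3.03 ± 0.17 (SD, n = 3) at 36 h. This call ended without untreated replicate 2 (0.297, adjusted p = 0.109) or 3 (0.32, adjusted p = 0.0865) and without replicate 1 (0.32, adjusted p = 0.0704) or 2 of 36 h (0.24, adjusted p = 0.166), and with array weights (0.21, adjusted p = 0.0941).

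The other 16 ligands, Wnt10b among them, were not called. All 16 lay below the median signal, with means between 2.79 and 4.03, and their changes against untreated cells ran from -0.38 to 0.15 with a lowest adjusted p of 0.0690. Wnt10b differed from untreated cells by -0.19 ± 0.10 at 48 h (adjusted p = 0.206). Among the 53 members, 4 pairs are direct neighbours in the protein-coding gene order of GRCm38.p6. They are Wnt6 with Wnt10a, Wnt3a with Wnt9a, Wnt9b with Wnt3, and Wnt10b with Wnt1. All 8 genes belong to these 16 ligands of low signal, and none was called at any time.

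The Frizzled receptors, membrane proteins that bind Wnt ligands through a cysteine-rich domain, moved in opposite directions. The F-test called 5 of the 10 (50%), beside 40.5% of all genes. Fzd5 rose early and returned, Fzd3 was higher at 6 h and 12 h, and Fzd1, Fzd2 and Fzd4 fell and stayed low, while Fzd6, Fzd7, Fzd8, Fzd9 and Fzd10 were not called against untreated cells. RefSeq promoter sequences (GRCm38.p6) of the receptor that rose first and of 2 that fell, Fzd4 and Fzd1, are printed to show the sequence ahead of genes of 1 family that moved in opposite directions. They are the 250 bases before the transcript start, 5′ to 3′ on the strand of the gene, with GGGCGG (a GC box) or TATAAA on either strand in capitals. The windows are chr1:64737751-64738000 (minus strand) for Fzd5, chr7:89404116-89404365 (plus strand) for Fzd4 and chr5:4758217-4758466 (minus strand) for Fzd1.
Fzd5: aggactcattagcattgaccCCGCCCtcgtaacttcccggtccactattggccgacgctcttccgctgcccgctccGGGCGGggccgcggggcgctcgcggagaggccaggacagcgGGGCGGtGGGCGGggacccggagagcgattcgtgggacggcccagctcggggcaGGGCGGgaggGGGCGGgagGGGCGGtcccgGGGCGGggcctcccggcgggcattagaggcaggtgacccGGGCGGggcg
Fzd4: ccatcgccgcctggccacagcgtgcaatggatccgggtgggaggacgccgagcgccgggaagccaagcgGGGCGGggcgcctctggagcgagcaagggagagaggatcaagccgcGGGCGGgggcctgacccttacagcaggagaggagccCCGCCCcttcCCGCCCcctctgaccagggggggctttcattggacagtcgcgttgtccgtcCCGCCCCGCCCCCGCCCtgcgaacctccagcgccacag
Fzd1: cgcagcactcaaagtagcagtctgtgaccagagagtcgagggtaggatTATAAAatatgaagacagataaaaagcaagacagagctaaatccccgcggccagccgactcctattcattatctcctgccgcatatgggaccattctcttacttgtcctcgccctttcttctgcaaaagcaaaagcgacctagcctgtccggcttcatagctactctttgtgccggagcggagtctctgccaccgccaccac
The Fzd5 window holds 9 GC boxes and is 76.4% G and C, the Fzd4 window holds 7 and is 72.8% G and C, and the Fzd1 window holds 0 with 1 TATAAA and is 51.2% G and C, beside a median of 52.4% over all promoters. Of these 3 windows, that of Fzd5 and that of Fzd4, which moved in opposite directions, were both GC-rich, and that of Fzd1 was not.

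The promoter table matched 35 of the 53 members with 43 windows, and 12 of the 17 called members with 16 windows. On both strands 4 motifs were searched, none of which contains another. A repeat of AGGTCA spaced by 1 base with at most 2 mismatches, the arrangement that PPARγ with its partner RXR is known to bind, was in 0 of the 43 member windows and in 3.24% of all 32851 windows. The TCF/LEF motif CTTTGAT was in 2 member windows (4.65%) and 3.21% of all, and in 0 of the 16 windows of called members. GGGCGG was in 31 member windows (72.1%), in 11 of the called members' windows (68.8%) and in 32.7% of all, and TATAAA in 8 (18.6%), 3 (18.8%) and 12.4%. A gene with several transcript starts gave several windows, which can overlap. The first of the 4 Lef1 windows overlaps the next and holds the same GC box, which was counted in both. These are matches of letters in a short window and do not show binding or its absence.

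Fzd5 read 5.90, 5.84 and 5.78 in untreated cells, 6.45, 6.22 and 6.60 at 30 min, 6.99, 7.11 and 6.99 at 1 h, and 7.03, 7.05 and 6.95 at 2 h. It then read 6.37, 6.39 and 6.32 at 6 h, 6.21, 6.12 and 6.21 at 12 h, and 5.88, 5.79 and 5.92 at 48 h. Every treated array from 30 min to 12 h lay above all untreated arrays, and from 24 h on the groups overlapped. The change was 0.58 ± 0.083 at 30 min (adjusted p = 0.00127), 1.19 ± 0.083 at 1 h (2.28-fold, adjusted p = 1.81e-09), 1.17 ± 0.083 at 2 h (adjusted p = 8.90e-10), 0.52 ± 0.083 at 6 h (adjusted p = 7.00e-05) and then 0.34 ± 0.083 at 12 h (adjusted p = 0.0045). At 24 h, 36 h and 48 h it was 0.06, -0.05 and 0.02. The rise from 30 min to 2 h (0.59, adjusted p = 4.13e-05), the fall from 2 h to 6 h (-0.65, adjusted p = 1.13e-05) and the fall from 6 h to 24 h (-0.46, adjusted p = 0.000437) each passed the test. The calls at 1 h, 2 h and 6 h held in every alternative. The call at 30 min ended without replicate 1 of all 9 groups (0.60, adjusted p = 0.171), without replicate 3 of all 9 groups (0.46, adjusted p = 0.308) and with the 6 compared arrays alone (0.58, adjusted p = 0.0908), and that at 12 h without replicate 3 of all 9 groups (0.29, adjusted p = 0.0722).

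Fzd4 read 8.39, 8.54 and 8.66 in untreated cells, 8.89, 8.73 and 8.81 at 1 h, 8.57, 8.72 and 8.60 at 2 h, 8.31, 8.38 and 8.34 at 6 h, 8.11, 7.97 and 7.99 at 12 h, and 7.93, 7.81 and 7.76 at 48 h. The arrays at 1 h lay above all untreated arrays, those at 2 h overlapped them, and those from 6 h on lay below them. The change of 0.28 ± 0.072 at 1 h missed the threshold (adjusted p = 0.0571). It was called when only genes above the median signal were tested, with a trended and robust variance, and without untreated replicate 3. Fzd4 changed by -0.51 ± 0.072 at 12 h and -0.69 ± 0.072 at 48 h (adjusted p = 1.15e-05 and 5.55e-08), the latter 1.62-fold lower. It also fell between treated times, by 0.29 from 2 h to 6 h (adjusted p = 0.0107) and by 0.37 from 6 h to 24 h (adjusted p = 0.000979). The first of these ended without replicate 2 of 2 h (-0.24, adjusted p = 0.0784) and with centred arrays (-0.22, adjusted p = 0.0572), and both ended without replicate 2 of all 9 groups (-0.26 and -0.34, adjusted p = 0.174 and 0.0626).

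Fzd1 read 8.18, 8.21 and 8.15 in untreated cells, 8.04, 8.08 and 7.93 at 2 h, 7.60, 7.80 and 7.69 at 6 h, 7.59, 7.73 and 7.75 at 24 h, and 7.78, 7.71 and 7.87 at 48 h. All arrays from 2 h on lay below all untreated arrays. Fzd1 changed by -0.48 ± 0.072 at 6 h (adjusted p = 3.25e-05), -0.49 ± 0.072 at 24 h (adjusted p = 1.55e-05) and then -0.39 ± 0.072 at 48 h (adjusted p = 0.000213). Its fall was complete at 6 h, when it had reached 123.4% of its change at 48 h, whereas Fzd4 had reached 26.4% of its own. The calls of Fzd1 and Fzd4 against untreated cells held in every alternative.

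Fzd2 read 7.05, 7.18 and 7.07 in untreated cells, 6.92, 6.91 and 7.02 at 1 h, 6.95, 6.72 and 6.50 at 2 h, 6.61, 6.82 and 6.66 at 6 h, and 6.63, 6.60 and 6.94 at 48 h. Every array from 1 h on lay below all untreated arrays. The change was -0.37 ± 0.0999 at 2 h (adjusted p = 0.0231), -0.40 ± 0.0999 at 6 h (adjusted p = 0.00586) and then -0.37 ± 0.0999 at 48 h (adjusted p = 0.00745), and it was called at 12 h, 24 h and 36 h as well. These calls rested on few arrays. Without untreated replicate 2 those at 2 h, 12 h, 24 h and 36 h ended (-0.33, -0.32, -0.28 and -0.28, adjusted p = 0.114, 0.0584, 0.0935 and 0.0893). The call at 2 h also ended without untreated replicate 3 (-0.39, adjusted p = 0.0526) and without replicate 2 or 3 of 2 h (-0.37 and -0.26, adjusted p = 0.0759 and 0.200). That at 24 h ended without replicate 1 or 2 of 24 h (-0.29 and -0.33, adjusted p = 0.0943 and 0.0504), that at 36 h without replicate 2 of 36 h (-0.23, adjusted p = 0.133), and that at 48 h without replicate 2 of 48 h (-0.31, adjusted p = 0.0512). The call at 6 h ended without replicate 2 of all 9 groups (-0.42, adjusted p = 0.0534). With centred arrays those at 24 h and 36 h ended (-0.25 and -0.24, adjusted p = 0.0796 and 0.0760), and the 6 compared arrays alone ended that at 2 h (-0.37, adjusted p = 0.0588).

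Fzd3, a receptor known for axon guidance and planar polarity, read 4.52, 4.20 and 4.59 in untreated cells, 4.63, 4.79 and 5.01 at 6 h, 4.86, 4.92 and 4.80 at 12 h, and 4.98, 4.76 and 4.47 at 48 h. The arrays from 1 h to 12 h lay above all untreated arrays and those at 48 h overlapped them. The rise was 0.37 ± 0.12 at 6 h and 0.43 ± 0.12 at 12 h (adjusted p = 0.0271 and 0.0105). Without untreated replicate 2, the lowest of its arrays, both calls ended (0.26 and 0.31, adjusted p = 0.197 and 0.0985). The call at 6 h also ended without replicate 2 or 3 of 6 h (0.38 and 0.28, adjusted p = 0.0602 and 0.172).

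The 5 receptors not called against untreated cells changed by -0.23 to 0.196 over the 8 times. Fzd7 and Fzd8 had signal above the median. Fzd7 read 6.35, 6.23 and 6.19 at 2 h and 6.43, 6.49 and 6.65 at 48 h, so that all arrays at 48 h lay above those at 2 h, and between these times it rose by 0.27 ± 0.094 (adjusted p = 0.0394). That call ended without replicate 2 or 3 of 2 h (0.26 and 0.24, adjusted p = 0.106 and 0.135) and without replicate 2 or 3 of 48 h (0.29 and 0.20, adjusted p = 0.0615 and 0.186). It also missed the threshold with the replicate number as a block (adjusted p = 0.0591).

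**Figure D3:**
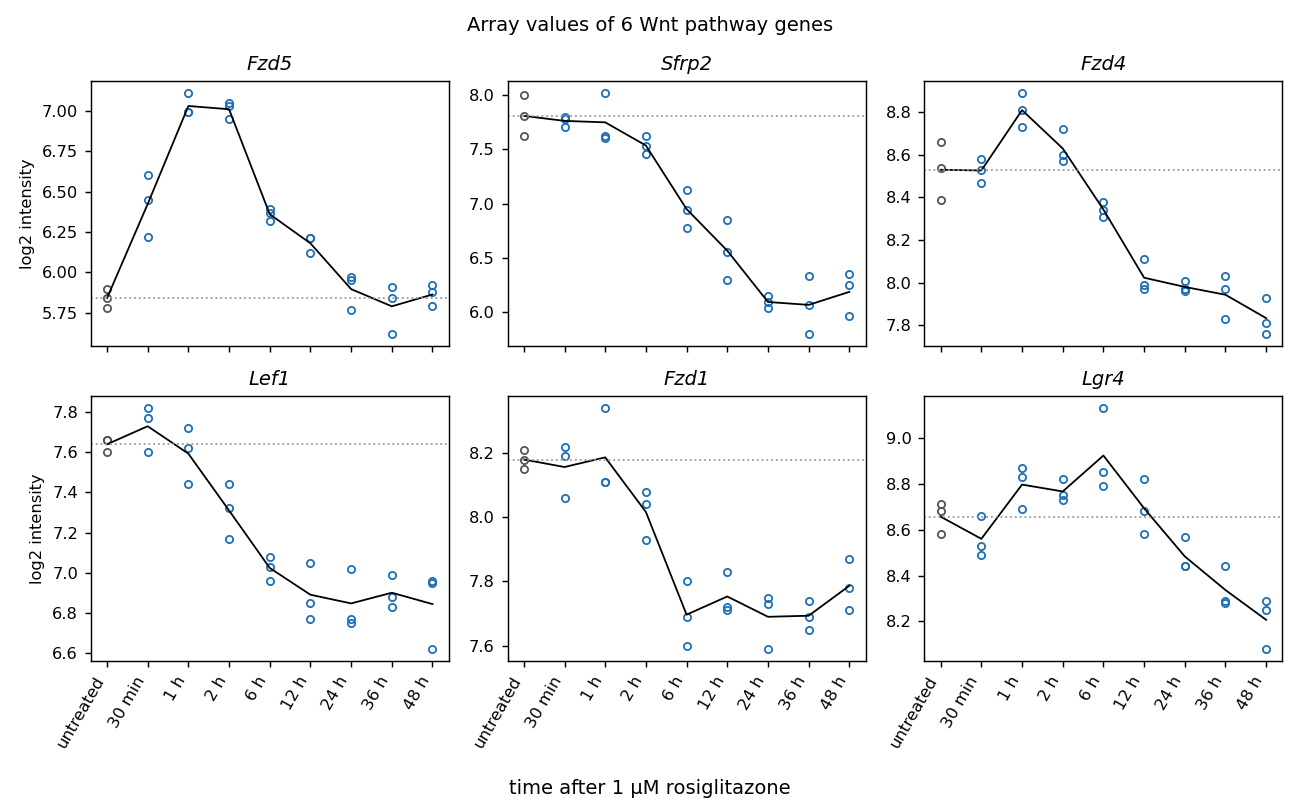
Log2 intensity (vertical axes) of the 6 Wnt pathway genes with the smallest F-test p in untreated cells (grey) and at each time after 1 µM rosiglitazone (blue); circles are single arrays, 3 a group, the line joins the group means and the dotted line is the untreated mean. Fzd5 climbs from 5.84 to 7.03 at 1 h and is back at 5.86 at 48 h, whereas Sfrp2, Lef1, Fzd1 and Fzd4 drop and stay low and Lgr4 peaks at 8.92 at 6 h before dropping to 8.21.

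Among the co-receptors, Lgr4, the R-spondin receptor, changed in both directions. It read 8.71, 8.58 and 8.68 in untreated cells, 8.79, 8.85 and 9.13 at 6 h, 8.57, 8.44 and 8.44 at 24 h, 8.29, 8.44 and 8.28 at 36 h, and 8.29, 8.25 and 8.08 at 48 h. The arrays at 2 h and 6 h lay above all untreated arrays and those from 24 h on lay below them. Lgr4 was higher by 0.26 ± 0.084 at 6 h (adjusted p = 0.0318) and lower at 36 h and 48 h (-0.32 ± 0.084 and -0.45 ± 0.084, adjusted p = 0.00655 and 0.000222). From 6 h to 24 h it fell by 0.44 (adjusted p = 0.000792), a comparison that does not use the untreated arrays and that ended without replicate 3 of all 9 groups (-0.32, adjusted p = 0.0515). The call at 6 h ended without replicate 3 of 6 h (0.16, adjusted p = 0.253) and without untreated replicate 2 (0.23, adjusted p = 0.133) or 3 (0.28, adjusted p = 0.0600). It also ended with quantile normalization (0.22, adjusted p = 0.0683), while the call at 48 h held in every alternative. The call at 36 h ended with arrays centred on their median (-0.24, adjusted p = 0.0614) and without replicate 1 (-0.27, adjusted p = 0.0702) or 3 (-0.28, adjusted p = 0.0539) of all 9 groups.

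Lrp5, the co-receptor known for its role in bone mass, read 10.10, 10.35 and 10.32 in untreated cells, 10.16, 9.95 and 10.01 at 36 h, and 10.04, 9.95 and 9.92 at 48 h. At 36 h the groups overlapped and at 48 h they did not. The change was -0.22 ± 0.074 at 36 h (adjusted p = 0.0354) and then -0.29 ± 0.074 at 48 h (adjusted p = 0.00519). The call at 36 h ended without untreated replicate 2 or 3 (-0.17 and -0.19, adjusted p = 0.170 and 0.139) and without replicate 2 or 3 of 36 h (-0.17 and -0.20, adjusted p = 0.152 and 0.106). With centred arrays the change at 36 h was -0.14 and was not called either (adjusted p = 0.228). That at 48 h ended without replicate 2 or 3 of all 9 groups (-0.23 in both, adjusted p = 0.122 and 0.133). Lrp6, its closest relative, was not called. Of the R-spondins, Rspo4 was lower by 0.33 at 24 h (-0.33 ± 0.094, adjusted p = 0.0121) at a signal of 3.09 ± 0.14 (SD, n = 3) in untreated cells, a call that ended without untreated replicate 2 (-0.25, adjusted p = 0.0982) or replicate 1 of 24 h (-0.27, adjusted p = 0.0804) and with centred arrays (-0.25, adjusted p = 0.0630). Lrp6 and Rspo1 to Rspo3 changed by -0.19 to 0.17 over the 8 times, with a lowest adjusted p of 0.252.

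The largest change of the pathway was in Sfrp2, a secreted frizzled-related protein that binds Wnt ligands outside the cell. It read 7.81, 8.0 and 7.62 in untreated cells, 7.62, 7.53 and 7.46 at 2 h, 6.78, 7.13 and 6.94 at 6 h, 6.30, 6.85 and 6.55 at 12 h, 6.09, 6.04 and 6.15 at 24 h, and 6.25, 5.96 and 6.35 at 48 h. All arrays from 2 h on lay below all untreated arrays, at 2 h with the highest level with the lowest untreated array to the digits given and from 6 h on well apart. The change was -0.27 ± 0.14 at 2 h, below the threshold of the test, then -0.86 ± 0.14 at 6 h (adjusted p = 7.05e-05), -1.24 ± 0.14 at 12 h (adjusted p = 3.75e-07), -1.71 ± 0.14 at 24 h (3.28-fold lower, adjusted p = 1.25e-09) and then -1.63 ± 0.14 at 48 h (adjusted p = 2.19e-09). The falls from 2 h to 6 h (-0.59, adjusted p = 0.00657) and from 6 h to 24 h (-0.86, adjusted p = 0.000124) each passed the test. Each call against untreated cells held in every alternative, while the fall from 2 h to 6 h ended without replicate 1 (-0.46, adjusted p = 0.134) or 3 (-0.62, adjusted p = 0.0631) of all 9 groups.

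Sfrp5, a family member known from fat tissue, was called by the F-test (adjusted p = 0.0115) at low signal. It read 3.39, 3.32 and 3.46 in untreated cells, 3.86, 3.81 and 3.38 at 1 h, and 2.84, 2.93 and 3.32 at 24 h. The arrays at 1 h overlapped the untreated ones, with 2 of 3 above them, and those at 24 h lay below, the highest of them level with the lowest untreated array. The change was 0.29 ± 0.15 at 1 h (adjusted p = 0.537) and then -0.36 ± 0.15 at 24 h (adjusted p = 0.0945), and no single time passed the threshold. The other 8 antagonists (Sfrp1, Sfrp4, Frzb, Wif1 and Dkk1 to Dkk4) were not called. All lay below the median signal, with means of 2.68 to 3.68, and their changes ran from -0.23 to 0.20 with a lowest adjusted p of 0.0758.

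Ctnnb1, which encodes β-catenin, showed no change in RNA that passed the test. The arrays do not measure β-catenin protein or its activity. Ctnnb1 differed from untreated cells by 0.05 ± 0.055 at 1 h and -0.07 ± 0.055 at 48 h (adjusted p = 0.838 and 0.383). Its largest difference was -0.11 ± 0.055 at 36 h (adjusted p = 0.179). Axin2, a negative regulator that is itself a widely used target of canonical Wnt signalling, lay below the median signal and differed by -0.17 ± 0.11 at 2 h (adjusted p = 0.468) and then -0.21 ± 0.11 at 48 h (adjusted p = 0.174). Axin1, the scaffold of the destruction complex, was higher by 0.25 ± 0.078 at 36 h alone (adjusted p = 0.0194). This call ended without untreated replicate 3 (0.22, adjusted p = 0.0939) and without replicate 1 of 36 h (0.19, adjusted p = 0.110). At an unadjusted p below 0.05, Axin2 was also lower at 30 min (-0.23 ± 0.11, adjusted p = 0.616).

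All 3 TCF/LEF factors, the DNA-binding partners of β-catenin, were called by the F-test, with different courses. Lef1 read 7.66, 7.66 and 7.60 in untreated cells, 7.44, 7.32 and 7.17 at 2 h, 7.03, 7.08 and 6.96 at 6 h, 6.75, 6.77 and 7.02 at 24 h, and 6.62, 6.96 and 6.95 at 48 h. Every array from 2 h on lay below all untreated arrays. The change was -0.33 ± 0.098 at 2 h (adjusted p = 0.0478), -0.62 ± 0.098 at 6 h (adjusted p = 6.63e-05) and then -0.797 ± 0.098 at 48 h (1.74-fold lower, adjusted p = 8.56e-07). The calls from 6 h to 48 h held in every alternative. The call at 2 h lay at the threshold and ended without untreated replicate 1, 2 or 3 (-0.32, -0.32 and -0.35, adjusted p = 0.131, 0.136 and 0.0872), without replicate 2 or 3 of 2 h (-0.33 and -0.26, adjusted p = 0.119 and 0.253), and with centred arrays (-0.30, adjusted p = 0.0531).

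Tcf7l1, which acts mostly as a repressor, read 9.73, 10.03 and 9.99 in untreated cells, 10.31, 10.18 and 10.29 at 2 h, 10.16, 10.27 and 10.11 at 6 h, and 9.92, 9.99 and 9.84 at 48 h. The arrays at 2 h and 6 h lay above all untreated arrays and those at 48 h overlapped them. It was 0.34 ± 0.086 higher at 2 h and 0.27 ± 0.086 higher at 6 h (adjusted p = 0.0137 and 0.0332), and from 2 h to 48 h it fell by 0.34 (adjusted p = 0.00399), which ended without replicate 3 of all 9 groups (-0.29, adjusted p = 0.121). Without untreated replicate 1, the lowest of its arrays, the calls at 2 h and 6 h ended (0.25 and 0.17, adjusted p = 0.120 and 0.227). The call at 2 h also ended without replicate 1 or 3 of 2 h (0.32 and 0.33, adjusted p = 0.0619 and 0.0596), and that at 6 h without replicate 1 or 2 of 6 h (0.28 and 0.22, adjusted p = 0.0620 and 0.145) and with quantile normalization (0.20, adjusted p = 0.113).

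Tcf7l2, the factor best known from its link to type 2 diabetes, read 9.51, 9.62 and 9.64 in untreated cells, 9.28, 9.43 and 9.42 at 36 h, and 9.39, 9.43 and 9.37 at 48 h. Both times lay below all untreated arrays. The change was small, -0.22 ± 0.065 at 36 h (adjusted p = 0.0184) and then -0.195 ± 0.065 at 48 h (adjusted p = 0.0298). Both calls ended without untreated replicate 2 (-0.199 and -0.18, adjusted p = 0.0688 and 0.0993) or 3 (-0.19 and -0.17, adjusted p = 0.0796 and 0.113). Both also ended with centred arrays (-0.14 and -0.15, adjusted p = 0.138 and 0.0995). The call at 36 h also ended without replicate 1 of 36 h (-0.17, adjusted p = 0.102), and that at 48 h without replicate 1 or 3 of 48 h (-0.19 and -0.18, adjusted p = 0.0705 and 0.0856).

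**Figure D4:**
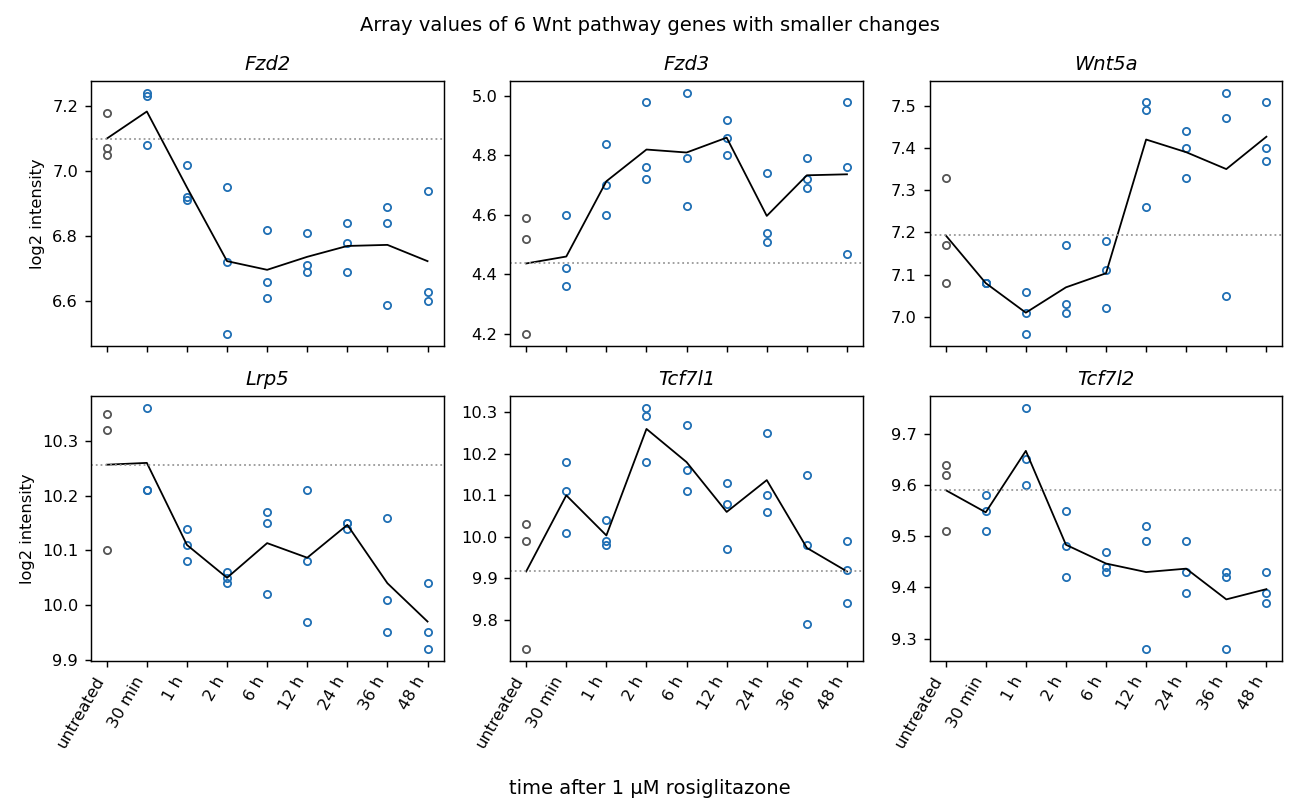
Log2 intensity (vertical axes) of 6 Wnt pathway genes with smaller changes in untreated cells (grey) and at each time after 1 µM rosiglitazone (blue); circles are single arrays, 3 a group, the line joins the group means and the dotted line is the untreated mean. Fzd2 drops from 7.10 to 6.72 at 2 h, Fzd3 peaks at 4.86 at 12 h, Wnt5a steps up from 7.10 at 6 h to 7.42 at 12 h, and circles of treated and untreated arrays lie close together for Lrp5, Tcf7l1 and Tcf7l2.

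**Figure D5:**
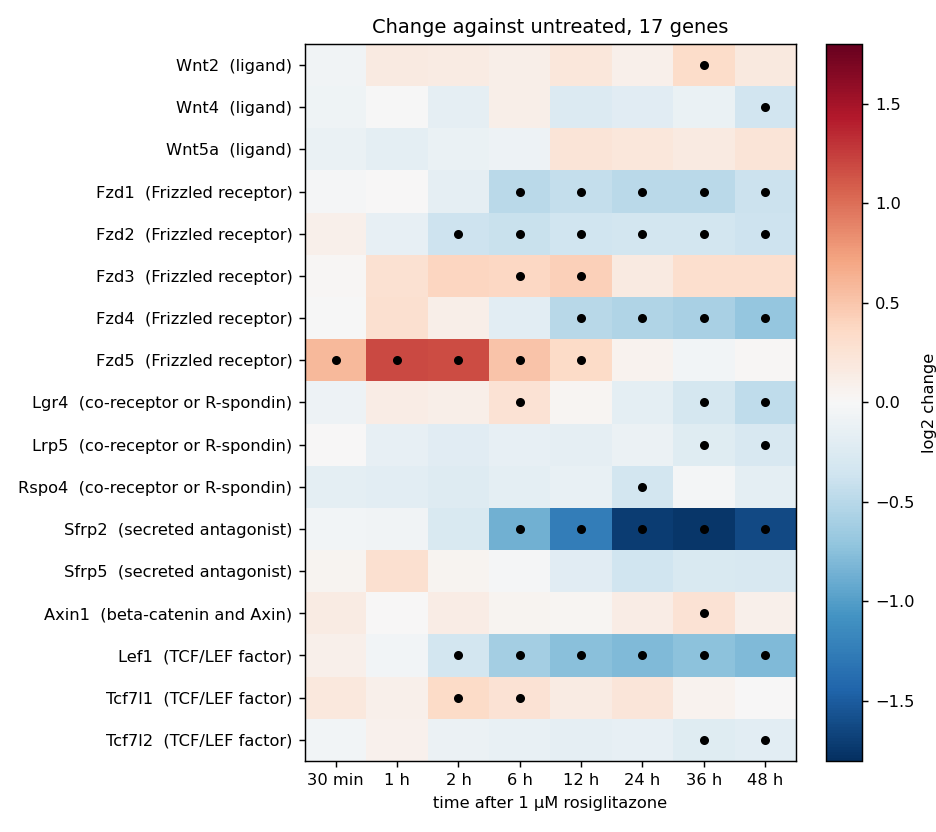
Log2 change against untreated cells (colour, red higher and blue lower) of the 17 Wnt pathway genes called by the F-test or at a single time, by time after 1 µM rosiglitazone (horizontal axis), with a dot where the adjusted p was below 0.05. Fzd5 is the row with early red (1.19 at 1 h), Sfrp2 has the deepest blue (-1.74 at 36 h), and Wnt5a and Sfrp5 have no dots.

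Preadipocyte and fibroblast markers fell in the same arrays. Of the 18 markers, 0 had risen and 2 had fallen at 2 h, 0 and 3 at 6 h, 0 and 8 at 12 h, 0 and 11 at 24 h, 1 and 10 at 36 h, and 1 (Ebf2) and 11 at 48 h. Log2 of their summed intensity went from 13.53 to 13.61 in untreated cells and 13.52 to 13.59 at 2 h to 13.39 to 13.42 at 6 h, 13.11 to 13.26 at 24 h and 13.08 to 13.11 at 48 h. The smooth muscle actin gene Acta2 had changes of -0.64 ± 0.12 at 6 h and -2.37 ± 0.12 at 48 h (adjusted p = 0.000462 and 4.66e-13). Of the 12 adipocyte markers, 1 had risen and 2 had fallen at 2 h, 5 and 2 at 6 h, 3 and 2 at 12 h, 5 and 3 at 24 h, 3 and 2 at 36 h, and 0 and 3 at 48 h (Lep, Pparg and Retn). Beside both lists, 3.04% of all genes had risen and 2.87% had fallen at 2 h, and 8.39% and 8.18% at 6 h. The shares were 9.48% and 9.38% at 12 h, 10.1% and 10.5% at 24 h, 10.9% and 10.5% at 36 h, and 12.6% and 11.4% at 48 h. Of all genes above the median signal, 39.4% were called at 48 h. At an unadjusted p below 0.05, limma gave 2 adipocyte markers higher at 48 h, and 1 fibroblast marker higher at 2 h, 6 h and 24 h and 0 at 12 h. Log2 of the summed intensity of the adipocyte markers was 14.95 to 14.99 in untreated cells, 15.0 to 15.1 at 6 h and 14.85 to 14.97 at 48 h. The 9 members called lower at 48 h differed in how much of that change was present earlier. At 2 h the share ran from -24.3% (Lgr4) to 101.2% (Fzd2). At 6 h it was 123.4% for Fzd1, 108.2% for Fzd2, 77.3% for Lef1, 71.7% for Tcf7l2 and 52.8% for Sfrp2. It was then 50.3% for Lrp5, 26.4% for Fzd4, -29.0% for Wnt4 and -58.2% for Lgr4. The part of the fibroblast markers in the decreases of these 9 genes was not tested.

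Other genes of the pathway were read from 4 further lists, which share some genes with each other. Beside 40.5% of all genes, the F-test called 7 of 22 genes of Wnt secretion and the cell surface, 18 of 34 intracellular components, 14 of 22 genes of planar polarity and the β-catenin-independent branches, and 15 of 24 genes known as β-catenin targets. The share of all genes was 66.1% above the median signal and 15.0% below it. These 4 lists were not split by signal. At single times, the shares of all genes higher and lower were 3.04% and 2.87% at 2 h, 8.39% and 8.18% at 6 h, 9.48% and 9.38% at 12 h, 10.1% and 10.5% at 24 h, 10.9% and 10.5% at 36 h, and 12.6% and 11.4% at 48 h. Among the 22 surface genes, 0 had risen and 2 had fallen at 2 h, 1 and 3 at 6 h, 1 and 2 at 12 h, and 2 and 4 at 24 h, 36 h and 48 h, with a list median of -0.0963 at 48 h. At an unadjusted p below 0.05, limma gave 0 surface genes higher at 2 h as well. The Wnt inhibitor Apcdd1 changed by -0.92 ± 0.081 (adjusted p = 4.04e-09) and was first called at 24 h, and the co-receptor Ptk7 changed by -0.84 ± 0.085 (adjusted p = 3.49e-08) and was first called at 6 h. Porcn, the enzyme that attaches the lipid to Wnt proteins, rose by 0.45 ± 0.088 (adjusted p = 0.00035).

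Of the 34 intracellular genes, 2 had risen and 3 had fallen at 2 h, 2 and 5 at 6 h, 3 and 2 at 12 h, 5 and 4 at 24 h, 2 and 3 at 36 h, and 2 and 6 at 48 h. The list median was 0.0355 at 24 h and 0.00273 at 48 h. The corepressor Tle3, which in fat cells is also known to act with PPARγ, was higher from 2 h (0.48 ± 0.059, adjusted p = 4.78e-06) to 48 h (0.53 ± 0.059, adjusted p = 1.57e-07). Ppp2r5a, a regulatory subunit of protein phosphatase 2A, was higher by 0.77 ± 0.073 at 48 h (adjusted p = 1.63e-08). Tle4, a relative of Tle3, and the β-catenin coactivator Bcl9l each changed by -0.24 at 48 h (adjusted p = 0.0394 and 0.0148). Of the 22 planar polarity and β-catenin-independent genes, 0 had risen or fallen at 2 h, 2 had risen and 7 had fallen at 6 h, 1 and 9 at 12 h, 3 and 7 at 24 h and at 36 h, and 3 and 5 at 48 h, with a list median of -0.125 at 48 h. At an unadjusted p below 0.05, limma gave 1 of them higher and 5 lower at 2 h. At 48 h, Prickle1 changed by -0.67 ± 0.082 (adjusted p = 6.60e-07) and Intu by 0.50 ± 0.10 (adjusted p = 0.000486).

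Among the 24 β-catenin target genes, 0 had risen and 7 had fallen at 2 h (3.04% and 2.87% of all genes), 2 and 8 at 6 h (8.39% and 8.18%), 2 and 9 at 12 h (9.48% and 9.38%), 4 and 9 at 24 h (10.1% and 10.5%), 4 and 10 at 36 h (10.9% and 10.5%), and 4 and 10 at 48 h (12.6% and 11.4%). The list medians at 2 h, 6 h and 48 h were -0.0939, -0.13 and -0.0793. At an unadjusted p below 0.05, limma gave 0 targets higher at 2 h as well. Ccnd1, the G1 cyclin, changed by -0.55 ± 0.10 at 6 h and -1.46 ± 0.10 at 48 h (adjusted p = 0.000303 and 6.37e-11), and the membrane protease gene Mmp14 by -0.66 ± 0.060 at 48 h (adjusted p = 7.44e-09). Gja1, which encodes a gap junction protein, rose by 1.43 ± 0.11 at 48 h (adjusted p = 5.84e-10). Jun, an AP-1 factor, was lower at 2 h (-0.56 ± 0.073, adjusted p = 9.44e-06) and higher at 48 h (0.56 ± 0.073, adjusted p = 1.99e-06). These genes have other regulators, and the list overlaps the surface and intracellular lists.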

How the data were processed

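The values are the log2 intensities per probe set that the authors deposited for 27 arrays; the tools named in the submitters' processing notes are RMA and Partek, without versions or roles. The series' design text mentions DMSO-treated cells, a label found on 0 samples here. Of 28815 probe sets, 21153 had 1 gene symbol, and the one with the highest mean stood for a gene, which left 18781 genes, none removed for low signal. Array medians were 4.02 to 4.13, 0 pairs of arrays were identical, and the median SE of a change at 48 h was 0.0877, so the number of arrays limits precision.

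limma 3.58.1 (lmFit and eBayes, under R 4.3.3) was fitted to the 27 single arrays with a mean for each group, without covariates or a filter. Tests were two-sided. The members, lists and comparisons were chosen with earlier results of these data known. Members called by the F-test or at a single time are described, the 14 with the smallest F-test p with array values, and up to 4 genes of each other list with the smallest F-test p were eligible to be named; Fzd7, Wnt10b, Ctnnb1 and Axin2 are named outside this rule. The model was tested on simulated data. Promoters, gene order and names came from RefSeq tables for GRCm38.p6; no build was given for the arrays. Alternatives were a block for the replicate number, the brighter genes alone (above the median signal), probe sets averaged, arrays centred, array weights, quantile normalization, variance that was trended and robust, the 6 arrays compared alone, and leaving out each replicate number or array. Tables and plots used Python 3.11.15, pandas 2.3.3 and matplotlib 3.10.9.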

Additional observations from a re-analysis of the deposited data

Results flagged for a closer look

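The change from untreated cells differed between 2 h and 48 h for 9 members, by the limma contrast of 48 h minus 2 h (adjusted p below 0.05 over all genes), which does not use the untreated arrays. These were 17% of the members, beside 23.7% of all genes (12.2% higher and 11.5% lower). Lower at 48 h than at 2 h were Sfrp2 (-1.35 ± 0.14), Fzd5 (-1.15 ± 0.083), Fzd4 (-0.797 ± 0.072), Lgr4 (-0.56 ± 0.084), Lef1 (-0.47 ± 0.098), Tcf7l1 (-0.34 ± 0.086) and Fzd1 (-0.23 ± 0.072). Higher were Wnt5a (0.36 ± 0.094) and Fzd7 (0.27 ± 0.094). Fzd5 and Tcf7l1 had risen at 2 h and were back near the untreated level at 48 h, whereas Sfrp2, Fzd4, Fzd1 and Lef1 were lower than untreated at 48 h. The calls of Fzd5, Fzd4, Lgr4 and Sfrp2 held in every alternative. That of Fzd1 ended without replicate 1 or 2 of 2 h (-0.22 and -0.19, adjusted p = 0.0699 and 0.107) or of 48 h (-0.22 and -0.19, adjusted p = 0.0549 and 0.111), and that of Lef1 without replicate 1 of all 9 groups (-0.29, adjusted p = 0.0829).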

How the results depend on the processing

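Of 46 calls of a member at a time against untreated cells, 23 held under every alternative, 23 ended under at least 1, and 0 reversed. With fewer arrays, the F-test called 9 to 11 members (13 with all arrays), and single times called 0 to 1 at 30 min, 1 to 2 at 1 h (2 without untreated replicate 3), 1 to 3 at 2 h (4 with all arrays), 4 to 8 at 6 h and 5 to 10 at 36 h (6 without untreated replicate 2). Between treated times they called 1 to 3 from 30 min to 2 h (1 without replicate 3 of 2 h) and 1 to 5 from 2 h to 6 h. At 2 h the count was 2 without replicate 2 and 1 without replicate 3 of 2 h. The 6 arrays compared gave 0 members at 30 min; genes above the median signal alone, and a trended and robust variance, each gave 2 at 1 h. Array weights gave 10 at 24 h, 17 at 36 h, 5 from 30 min to 2 h and 7 from 6 h to 24 h; the cause was not tested. Centring arrays moved the median of all genes by at most 0.0864. Same-numbered arrays did not deviate together (108 pairs, r from -0.445 to 0.142, median -0.126). Of the 27 arrays, 0 correlated best with arrays of their own number. What lies behind the mostly negative r was not tested. With the replicate number as a block, 2 h had 3 calls, 6 h had 6, 36 h had 8 and 48 h had 7, without Lef1 at 2 h, Lgr4 and Tcf7l1 at 6 h, Lrp5 and Wnt2 at 36 h, and Tcf7l2 and Wnt4 at 48 h. Between treated times it ended the call of Fzd7 from 2 h to 48 h (adjusted p = 0.0591). Low signal limits what can be seen of the 37 members below the median.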
